A study of Mus musculus with 6 samples.

Results

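The genes described here encode the SR, hnRNP and RBM families of RNA-binding proteins, measured in mouse proximal tubular epithelial cells (PTECs) given palmitic acid (PA), a saturated fatty acid, bound to BSA, or BSA alone. They were chosen by symbol, as every gene whose name starts with Srsf and a digit, Tra2, Hnrnp, or Rbm and a digit, together with Rbmx and Rbmxl1. This rule took 75 of the 24421 genes in the deposited table, made up of 13 SR and Tra2 genes, 20 hnRNP genes and 42 RBM genes. Of these, 67 had a mean of at least 0.5 RPKM (reads scaled by gene length and by the total reads of the library) over the 6 libraries and were tested. The rule used names and no measured value. It also took Rbm3os and Rbm46os, which are antisense transcripts and encode no protein.

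The RNA came from immortalized wild-type PTECs in culture, exposed for 6 hours to PA-bound BSA (the PA group, 3 libraries) or to BSA (the BSA group, 3 libraries). Both groups thus received albumin, the cells of both are described as wild-type, and they are a cultured line in place of tubule tissue. It is not stated that the 3 libraries within each treatment were grown as separate cultures, so the p-values measure the spread between these libraries, which may be technical. More than one sequencing center took part, and which of them ran which library is not stated either, so a difference between centers cannot be told apart from the spread or from the treatment.

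SR proteins carry arginine-serine repeats, bind enhancer sequences in exons and help the spliceosome to choose splice sites, and SR kinases control their activity and location. hnRNPs coat nascent transcripts, and many of them oppose exon inclusion, so the balance between both families shapes alternative splicing in most cell types. RBM proteins share an RNA recognition motif but little else: the group holds spliceosome subunits, splicing regulators, an exon junction protein, a nucleolar ribosome assembly factor and adaptors of RNA methylation. Many genes of these families make transcripts with premature stop codons that are removed by nonsense-mediated decay, a means by which the proteins hold their own level steady.

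The 6 libraries held 17679817 to 21568228 reads by the denominators recovered from the RPKM values. Of the marker genes, a mean of more than 1 RPKM was seen for 4 of 12 proximal tubule markers and for 3 of 5 general epithelial markers, while Slc34a1, Slc5a2, Hnf4a, Cdh1 and Epcam averaged at most 0.21 RPKM, so several defining transporters of the tubule were nearly absent from these cells. Markers over 1 RPKM numbered 1 of 8 for fibroblasts, 1 of 7 for endothelium, 3 of 9 for immune cells and 2 of 9 for other nephron segments. The summed fibroblast markers were 1.49 to 2.14 RPKM in PA libraries, against 2.44 to 2.84 RPKM in BSA libraries, and the summed epithelial markers were 620.7 to 663 RPKM in PA libraries, against 762 to 824 RPKM in BSA libraries, with Krt8, Krt18 and Krt19 all past the test. The part of these differences in the results below was not tested.

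Of the 67 tested genes, 11 fell and 5 rose in PA, and the remaining 51 did not pass the test (limma on log2(RPKM + 0.1), Benjamini-Hochberg adjusted p under 0.05 over 11671 genes). The 5 higher genes were 7.46% of those tested, against 11.2% of all genes, and the 11 lower genes were 16.4%, against 9.52% of all genes. The changes were small. The log2 fold change of PA over BSA ran from -0.31 for Rbmx to 0.32 for Rbm15, and it was negative for 53 of the 67 genes (79.1%, against 59.1% of all genes tested). No gene of the 3 families was past both the test and an absolute log2 fold change of 0.4, which 6.29% of all genes were, and none was so at an unadjusted p under 0.05 or with limma's voom method on recovered reads. The median log2 fold change was -0.08 over these genes and -0.04 over all genes tested. RPKM are relative to each library's total, so less RNA of these genes per cell and more RNA of other genes cannot be told apart.

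The groups did not overlap in 34 of these genes. In 27 genes (40.3%, against 22.3% of all genes) each PA library was below each BSA library, and in 7 genes (10.4%, against 18.2% of all genes) each was above. The counts of calls depended on single libraries, as they did over the whole table. The number of lower genes was 4 without PA 1, 3 without PA 2, 1 without PA 3 and 7 without BSA 2, where 6.76%, 3.35%, 3.78% and 3.97% of all genes were called lower. The number of higher genes was 3 without PA 1 or BSA 1 and 2 without PA 2, PA 3 or BSA 2, where 7.02% to 9.87% of all genes were called higher. After median-of-ratios scaling, a scaling by the typical gene in place of the read total, 4 genes were higher (5.97%, against 12.7% of all genes) and 4 lower (5.97%, against 6.91% of all genes). The lower share of these genes was thus above that of all genes in the main test, but not under this scaling, without a variance trend, or without PA 1 or PA 3.

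**Figure D1:**
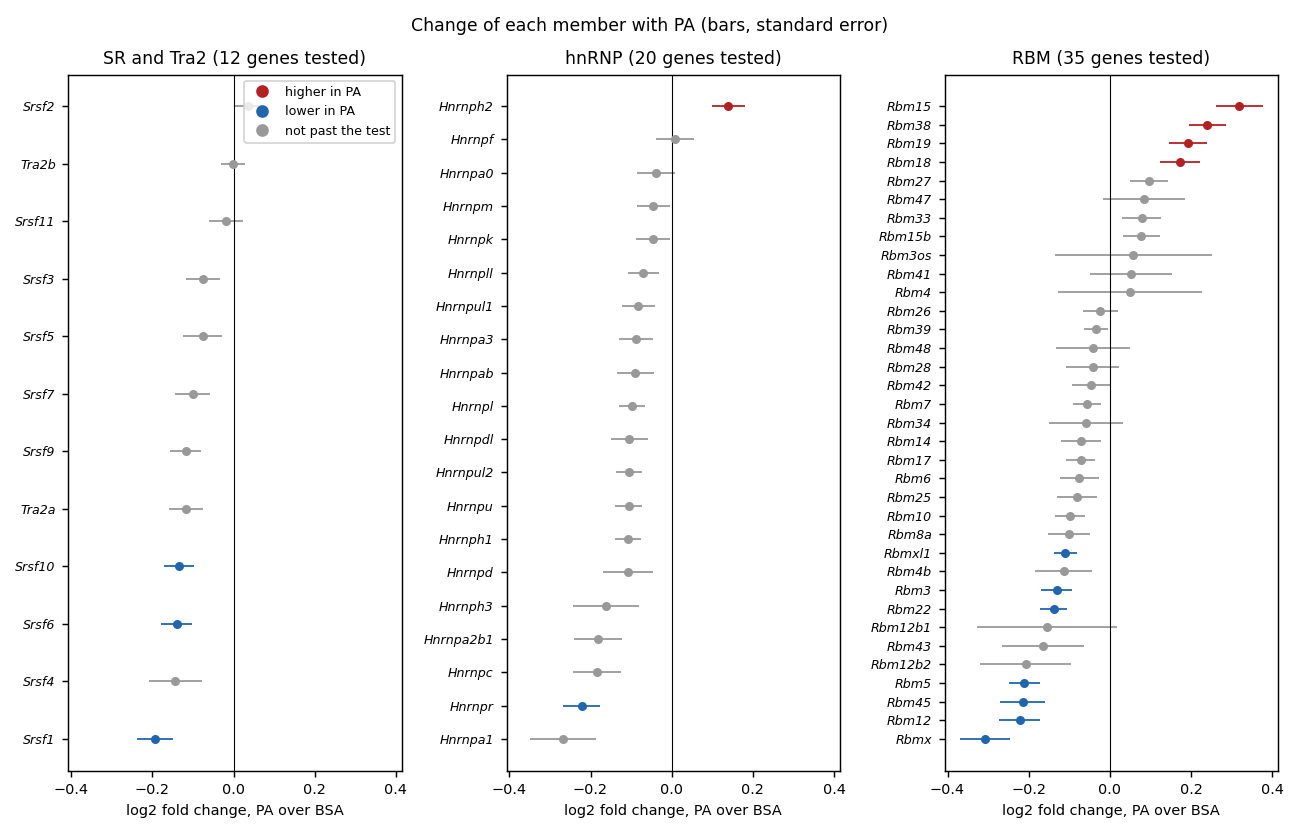
Log2 fold change of PA over BSA for each tested gene, in 1 panel for each family, with bars for the standard error (3 libraries in each group). Most points lie to the left of 0, and those that passed the test range from -0.31 (Rbmx) to 0.32 (Rbm15).

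In both groups the hnRNP genes gave the most RNA per length. Their median level was 116 RPKM, compared with 98.6 RPKM for SR and Tra2 genes, 16.5 RPKM for RBM genes and 11.6 RPKM for all genes tested. Summed over the family, hnRNP transcripts reached 3091 ± 31.1 RPKM in PA libraries, against 3288 ± 151 RPKM in BSA libraries (SD, n = 3 each). The SR and Tra2 sum was 1237 ± 2.91 RPKM in PA libraries, against 1299 ± 36.5 RPKM in BSA libraries. The RBM sum was 1089 ± 9.58 RPKM in PA libraries, against 1137 ± 19.7 RPKM in BSA libraries. On this scale all 3 sums were lower in each PA library than in each BSA library, and the BSA libraries spread more widely. The separation was not tested after median-of-ratios scaling. The factors of that scaling were 1.00, 0.988 and 0.984 in PA 1 to 3. In BSA 1 to 3 they were 1.02, 1.01 and 0.989, so the gaps between the sums depend on the scaling.

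**Figure D2:**
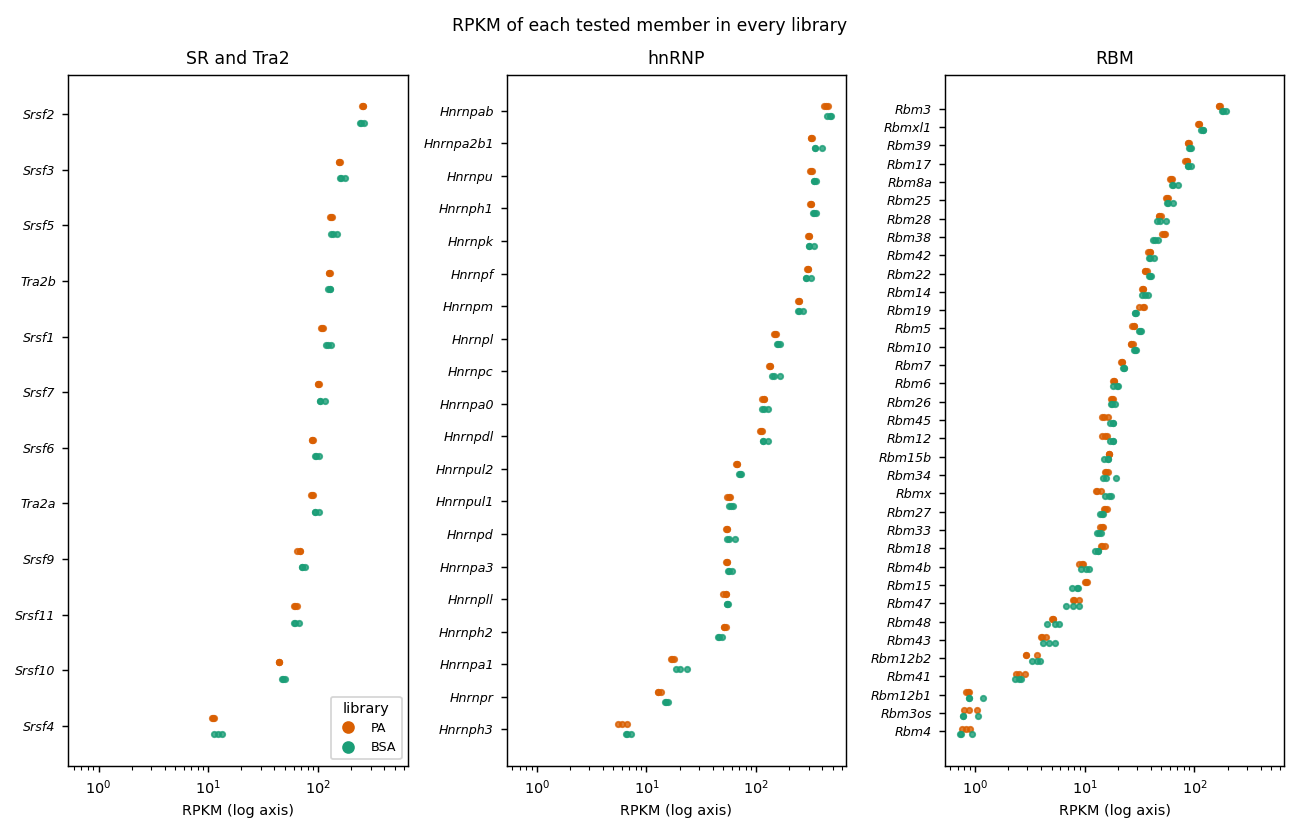
RPKM of each tested gene in every library on a log axis, ordered by mean level within the family, with PA libraries above BSA libraries. The difference between genes, which reaches from 0.82 RPKM (Rbm4) to 447 RPKM (Hnrnpab), is far wider than that between the treatments.

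One of the BSA libraries stood apart. Over the 67 genes the median SD of the log2 values was 0.03 among PA libraries and 0.07 among BSA libraries. Over all genes tested it was 0.06 and 0.08, so the BSA spread of these genes was near that of all genes and their PA spread was lower. The 67 genes had a median level of 48.9 RPKM, against 11.6 RPKM for all genes, and the spreads were not matched for level. BSA 3 was the highest of the BSA libraries in 40 of the 67 genes (59.7%, against 29.8% of all genes), in 9 of 12 SR and Tra2 genes, in 16 of 20 hnRNP genes and in 15 of 35 RBM genes. Relative to the BSA mean of each gene, the median hnRNP gene lay at -0.09, -0.10 and -0.10 (log2) in PA 1 to 3 and at -0.02, -0.04 and 0.06 in BSA 1 to 3. Thus BSA 3 stood apart from the other BSA libraries upward, but the hnRNP medians of the PA libraries remained below all of the BSA libraries. Without BSA 3, 4 genes of the 3 families were higher and 15 lower in PA (22.4%), and the lower share of all genes was 14.1%.

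The BSA libraries also differed in how a gene's level followed its base composition. Across genes, the Spearman correlation of a library's deviation from its group mean with GC content was 0.034, -0.043 and 0.007 in PA 1 to 3, and 0.355, 0.160 and -0.375 in BSA 1 to 3. The genes of the 3 families had a median GC content of 44.2%, against 49.8% for all genes tested. After the GC trend of each library was removed, 5 genes were higher (7.46%, against 13.8% of all genes) and 8 lower (11.9%, against 8.68% of all genes). The median log2 fold change was then -0.06 over the 67 genes and -0.01 over all genes. The 3 calls lost in this way were Srsf6, Srsf10 and Rbm3, with log2 fold changes of -0.11, -0.10 and -0.10 (adjusted p 0.0586, 0.0576 and 0.0899).

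**Figure D3:**
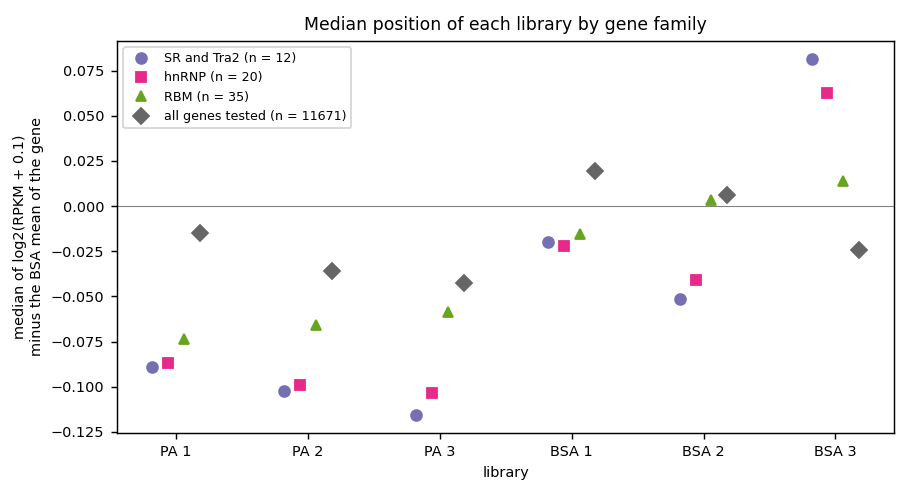
Median over the tested genes of each family, and over all genes tested, of log2(RPKM + 0.1) minus the gene's mean in the BSA libraries, for each library. The PA libraries lie between -0.12 and -0.06 for the 3 families, and BSA 3 lies at 0.08 for SR and Tra2 genes and at 0.06 for hnRNP genes.

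Among the SR and Tra2 genes, 3 of the 12 tested (Srsf1, Srsf6 and Srsf10) fell in PA (25.0%, against 9.52% of all genes) and 9 did not pass the test. The number that rose was 0 with limma, 0 at an unadjusted p under 0.05 and 0 with voom. The family median was -0.11 (log2). Srsf1, a founding SR protein that binds exonic enhancers and helps U1 to recognise the 5′ splice site, is at chr11:88047373-88053755 of GRCm38. It had 107, 108 and 110 RPKM in PA 1 to 3, against 122, 118 and 132 RPKM in BSA 1 to 3. All PA values were below all BSA values, BSA 3 was the highest of all, and the log2 fold change was -0.19 (SE 0.04, adjusted p = 0.0204).

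Srsf6, which also binds exonic enhancers, had 88.7, 89.9 and 87.4 RPKM in PA libraries, against 96.5, 94.1 and 103 RPKM in BSA libraries. The groups were separate, with a log2 fold change of -0.14 (SE 0.04, adjusted p = 0.0375). Srsf10, an SR protein that turns into a splicing repressor when it loses its phosphates during heat shock, had 43.7, 44.2 and 43.7 RPKM in PA libraries, against 46.4, 48.1 and 50.2 RPKM in BSA libraries. The PA libraries were nearly equal here and the log2 fold change was -0.13 (SE 0.04, adjusted p = 0.0389). Each of these 3 calls was lost when any 1 PA library was left out, Srsf6 also without BSA 1 and Srsf10 also without BSA 2, and all 3 after median-of-ratios scaling and without a variance trend. Srsf6 and Srsf10 were also lost without a minimum on RPKM, and Srsf6 with a replicate block (adjusted p = 0.0527). Over all alternatives the adjusted p ranged from 0.0038 to 0.0752 for Srsf1, from 0.0159 to 0.125 for Srsf6 and from 0.0162 to 0.124 for Srsf10.

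The 2 most abundant SR transcripts did not pass. Srsf2, which encodes the SR protein SC35 of nuclear speckles, had 254, 252 and 256 RPKM in PA libraries, against 259, 246 and 238 RPKM in BSA libraries (log2 fold change 0.04, 95% interval -0.05 to 0.12, adjusted p = 0.506). Srsf3, the smallest SR protein, which also acts in mRNA export, had 156, 160 and 156 RPKM in PA libraries, against 162, 159 and 176 RPKM in BSA libraries (log2 fold change -0.08, adjusted p = 0.239). In both genes the groups overlapped, and BSA 3 was the lowest BSA library for Srsf2 but the highest for Srsf3. Srsf5 and Tra2b, an SR-like activator of exons rich in GAA repeats, had log2 fold changes of -0.08 and -0.00. For Tra2b the 95% interval was -0.07 to 0.07. The 9 genes that did not pass ranged from -0.14 (Srsf4) to 0.04 (Srsf2), and 3 of them, Srsf7, Srsf9 and Tra2a, had each PA library below each BSA library. Srsf12 had 1 read in 1 BSA library and was not tested.

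Regulated splicing into decay-prone forms is a known trait of this family, and GENCODE annotates such transcripts for 11 of the 12 tested SR and Tra2 genes, 10 of 20 hnRNP genes and 12 of 35 RBM genes. The total for the 3 families was 33 of 67 (49.3%), against 30.1% of the protein-coding genes tested. The deposited values are 1 number per gene, so the forms with and without the premature stop were not separated.

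Most hnRNP genes had lower estimates in PA, but few passed the test. Of 20 genes, 18 had a negative log2 fold change (90.0%, against 59.1% of all genes), 11 had each PA library below each BSA library (55.0%, against 22.3% of all genes), 1 fell (Hnrnpr), 1 rose (Hnrnph2) and 18 did not pass. Over all genes 9.52% fell and 11.2% rose in the same test, so hnRNP genes were called less often than all genes in both directions. The family median was -0.10 (log2). Hnrnpr, a relative of Syncrip that acts on mRNA transport and stability, had 13.48, 12.71 and 12.79 RPKM in PA libraries, against 14.97, 14.82 and 15.71 RPKM in BSA libraries. The gap between the groups was wider than the range within either of them, with a log2 fold change of -0.22 (SE 0.05, adjusted p = 0.0132). Hnrnph2, which binds runs of G, had 50.5, 50.8 and 52.5 RPKM in PA libraries, against 45.8, 44.9 and 49.0 RPKM in BSA libraries. Here BSA 3 was the BSA library nearest to the PA libraries, and the log2 fold change was 0.14 (SE 0.04, adjusted p = 0.0490). Hnrnpr was lost without PA 2 or PA 3 (adjusted p 0.0015 to 0.0627 over all alternatives), and Hnrnph2 without any 1 PA library, BSA 1 or BSA 2, after median-of-ratios scaling or quantile normalization, and without a minimum on RPKM or a variance trend (0.0075 to 0.158). The number of hnRNP genes that fell was 0 without PA 2 or PA 3, 2 without BSA 1 or BSA 2, 5 without BSA 3 and 7 with voom. Of all genes, 3.35% and 3.78% were called lower without PA 2 and PA 3, and 5.39% and 3.97% without BSA 1 and BSA 2. The share was 14.1% without BSA 3 and 12.1% with voom.

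The most abundant gene of all 3 families was Hnrnpab, which encodes a protein of nuclear and cytoplasmic mRNPs. It had 414, 431 and 454 RPKM in PA libraries, against 468, 438 and 477 RPKM in BSA libraries (log2 fold change -0.09, adjusted p = 0.198), so PA 3 overlapped BSA 2. Hnrnpa2b1, a splicing and RNA-sorting factor, had 312, 322 and 318 RPKM in PA libraries, against 345, 339 and 399 RPKM in BSA libraries. Its groups were separate, but BSA 3 was far above the other BSA libraries and the gene did not pass (log2 fold change -0.18, adjusted p = 0.0665). Without BSA 3 it did (log2 fold change -0.11, adjusted p = 0.0194). Hnrnpu, a nuclear scaffold protein, and Hnrnph1, the close relative of Hnrnph2, had log2 fold changes of -0.11 each, with an adjusted p of 0.0588 for Hnrnpu and 0.0504 for Hnrnph1. Over the alternatives the adjusted p ranged from 0.0194 to 0.157 for Hnrnpa2b1, from 0.0158 to 0.226 for Hnrnpu and from 0.0247 to 0.184 for Hnrnph1. Thus Hnrnph1 and Hnrnph2, which share their binding sequence, had estimates of opposite sign, and the difference between them was not tested.

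The 18 hnRNP genes that did not pass ranged from -0.27 (Hnrnpa1) to 0.01 (Hnrnpf). Hnrnpa1, a classic antagonist of SR proteins at exonic silencers, was singled out after its values were seen. It had 16.7, 17.7 and 17.2 RPKM in PA libraries, against 20.1, 18.6 and 23.6 RPKM in BSA libraries (log2 fold change -0.27, SE 0.08, adjusted p = 0.0536). The groups were separate, and the low level itself stood out, since Hnrnpa2b1 was 16.9 to 18.7 times as high per length in the same libraries. The coding sequence of Hnrnpa1 matches 8 other genes at 95% identity or more. One of these, Gm5643, had 71 to 99 reads in each library, and Gm10052 was listed at 0, and no source used here says how the counting treated reads that match several places. Their part in the value of Hnrnpa1 was not tested.

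Among the RBM genes 7 of 35 fell, 4 rose and 24 did not pass, and the family median was -0.06 (log2). The share that rose was 11.4%, near the 11.2% of all genes, and the share that fell was above the 9.52% of all genes. The 4 genes that rose hold the largest increases of the 3 families. Rbm15, an adaptor that brings the m6A methyltransferase complex to RNA and takes part in Xist silencing, is at chr3:107325421-107333673 of GRCm38. It had 10.1, 10.3 and 10.6 RPKM in PA libraries, against 8.63, 8.51 and 7.68 RPKM in BSA libraries. All PA values were above all BSA values, BSA 3 was the lowest, and the log2 fold change was 0.32 (SE 0.06, adjusted p = 0.0082). Its paralog Rbm15b, which has the same role in the methyltransferase complex, was named after its values were seen and had a log2 fold change of 0.08 (95% interval -0.03 to 0.19).

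Rbm38, a p53 target that binds and stabilises mRNAs such as that of p21, is at chr2:173020498-173034734. It had 51.1, 52.5 and 53.4 RPKM in PA libraries, against 46.9, 44.1 and 42.1 RPKM in BSA libraries, again with all PA values above. The log2 fold change was 0.24 (SE 0.04, adjusted p = 0.0091). Rbm19, a nucleolar protein needed for ribosome assembly, had 31.0, 34.4 and 34.1 RPKM in PA libraries, against 29.5, 28.9 and 28.6 RPKM in BSA libraries (log2 fold change 0.19, SE 0.05, adjusted p = 0.0258). PA 1 was nearer to the BSA libraries than to the other PA libraries. Rbm18 had 14.2, 15.5 and 14.4 RPKM in PA libraries, against 12.5, 13.4 and 13.2 RPKM in BSA libraries (log2 fold change 0.17, SE 0.05, adjusted p = 0.0470).

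Rbm15 and Rbm38 passed the test in all 16 alternatives, with an adjusted p of 0.0024 to 0.0392 for Rbm15 and 0.0022 to 0.0442 for Rbm38. Rbm19 was lost without PA 2, PA 3 or BSA 2 and without a variance trend (0.0071 to 0.101 over all alternatives). Rbm18 was lost without any 1 library, after quantile normalization, and without a minimum on RPKM or a variance trend (0.0166 to 0.159).

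The RBM genes that fell include spliceosome and splicing factors. Rbmx, which encodes hnRNP G, a splicing regulator that works with Tra2b, is at chrX:57383530-57393036. It had 14.2, 13.1 and 12.6 RPKM in PA libraries, against 16.8, 17.3 and 15.4 RPKM in BSA libraries. The groups were separate and the log2 fold change of -0.31 (SE 0.06, adjusted p = 0.0123) was the lowest of the 67 genes. Rbm5, a splicing regulator of apoptosis genes such as Fas in human cells, is at chr9:107740371-107770996. It had 27.9, 28.3 and 26.8 RPKM in PA libraries, against 31.3, 32.7 and 32.0 RPKM in BSA libraries. Both groups were tight and the log2 fold change was -0.21 (SE 0.04, adjusted p = 0.0074).

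Rbm12 had 15.92, 15.21 and 14.48 RPKM in PA libraries, against 17.00, 17.99 and 18.24 RPKM in BSA libraries (log2 fold change -0.22, SE 0.05, adjusted p = 0.0195). Rbm45, found in inclusions of motor neuron disease in humans, had 15.04, 16.30 and 14.50 RPKM in PA libraries, against 17.98, 16.96 and 18.28 RPKM in BSA libraries (log2 fold change -0.21, SE 0.06, adjusted p = 0.0308). In both genes each PA library was below each BSA library and the gap was narrowest for Rbm45, between PA 2 and BSA 2. Rbm22, a subunit of the catalytic spliceosome, had a log2 fold change of -0.14 (adjusted p = 0.0255).

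Rbm3, a cold-inducible protein that promotes translation at low temperature, was the most abundant RBM transcript. It had 169, 168 and 171 RPKM in PA libraries, against 183, 178 and 195 RPKM in BSA libraries (log2 fold change -0.13, adjusted p = 0.0483). The PA libraries lay close together below all BSA libraries. Its cold-inducible partner Cirbp had a log2 fold change of -0.33 with a wider spread (SE 0.11, adjusted p = 0.0809) and did not pass, although voom called it lower. Rbmxl1, a retrogene copied from Rbmx, had 109, 109 and 110 RPKM in PA libraries, against 120, 118 and 116 RPKM in BSA libraries (log2 fold change -0.11, adjusted p = 0.0302), and was thus 6.85 to 8.72 times as high per length as Rbmx itself.

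Rbm5 passed the test in all 16 alternatives (adjusted p 0.0020 to 0.0361). Rbmx (0.0017 to 0.0550) and Rbm12 (0.0060 to 0.0729) were lost only without PA 2, PA 3 or BSA 2. Rbm22 was lost without PA 1, PA 3 or BSA 2 (0.0197 to 0.0956), Rbm45 without PA 1, PA 3, BSA 1 or BSA 3 (0.0244 to 0.106), Rbm3 without any 1 PA library or BSA 1 (0.0214 to 0.158) and Rbmxl1 without any 1 PA library, BSA 1 or BSA 2 (0.0107 to 0.115). Median-of-ratios scaling and the fit without a variance trend each also ended the calls of Rbm22, Rbm45, Rbm3 and Rbmxl1. No minimum on RPKM ended those of Rbm45 and Rbm3, quantile normalization that of Rbm3, and a replicate block that of Rbmxl1 (adjusted p = 0.0548). The number of RBM genes that fell was 3 without PA 1, PA 2 or BSA 2, 1 without PA 3 and 4 without BSA 1. In these fits 3.35% to 6.76% of all genes were called lower.

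**Figure D4:**
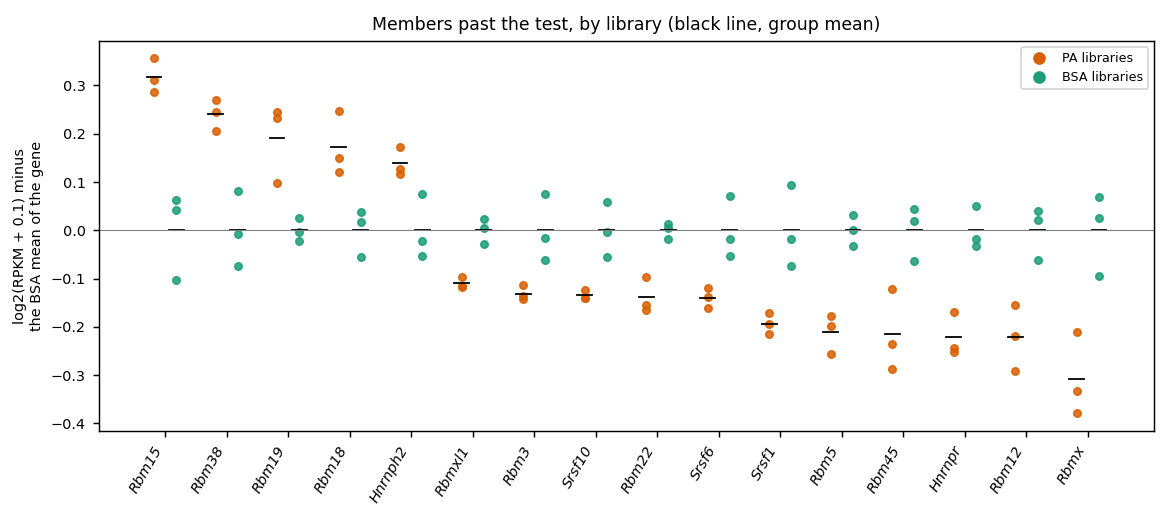
The 16 genes past the test, each library shown as log2(RPKM + 0.1) minus the gene's mean in the BSA libraries, with PA left of BSA and black lines for the group means. The PA and BSA points of each gene do not overlap, and the PA means run from 0.32 (Rbm15) to -0.31 (Rbmx).

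The coding sequences of Rbmx and Rbmxl1 are shown to mark where they differ. Only a read that lies wholly within a shared stretch fits both genes equally well, and a read that spans a difference does not. How many reads were of each kind was not tested. Over 1172 aligned bases they are 90.3% identical, with 105 mismatches. The first 120 coding bases of each, from GENCODE vM21 on GRCm38, read 5′ to 3′ as below, with the 8 differing bases in capitals.
Rbmx: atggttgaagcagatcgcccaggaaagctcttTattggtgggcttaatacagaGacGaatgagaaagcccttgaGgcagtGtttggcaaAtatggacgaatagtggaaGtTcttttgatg
Rbmxl1: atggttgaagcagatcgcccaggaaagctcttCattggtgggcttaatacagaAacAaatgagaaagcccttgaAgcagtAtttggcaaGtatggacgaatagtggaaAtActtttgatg
The runs without a capital are the stretches that both genes share.

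The 24 RBM genes that did not pass ranged from -0.21 (Rbm12b2) to 0.10 (Rbm27). The most abundant were Rbm39, a relative of U2AF, with a log2 fold change of -0.03, Rbm17, a factor of 3′ splice sites, with -0.07, Rbm8a, a core protein of the exon junction complex, with -0.10, and Rbm25, which works with U1, with -0.08. The adjusted p of these 4 genes was 0.458, 0.192, 0.198 and 0.286. The other 7 genes were not tested. Of these, Rbm20, the regulator of titin splicing in heart, had at most 27 reads in a library and Rbm44 at most 13, Rbm11 had at most 3, and Rbm46 and Rbm24 had at most 1. Rbm46os and Rbm31y were listed at 0 in every library, which allows up to 3 reads in each by counting error alone.

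Near-identical copies make some values uncertain. A copy of at least 95% identity over 200 bases or more was found for 21 of the 75 genes, and for 5 of the 16 past the test. Rbm3 has 4 such copies, Srsf10 and Rbmxl1 have 2 each, and Hnrnpr and Hnrnph2 have 1 each, nearly all processed pseudogenes, and none of these copies is in the deposited table. One copy of Rbmxl1, Gm7324, is annotated as protein-coding and is 99.7% identical to it. Among the genes not past the test, Hnrnpa3 has 26 copies, and Rbm12b1 and Rbm12b2 are 97.9% identical to each other. Exons also overlap those of other genes. Rbm12 shares 404 exon bases with Cpne1 and 2182 with Gm28036 on the same strand, Rbm19 shares 771 with Gm10390 on the opposite strand, and Rbm3 shares 94 with Rbm3os on the opposite strand. The library kit keeps strand, but no source used here gives the strand setting of the counting.

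The promoters of Rbmx and Rbm5 are shown as examples, chosen with their values known. Both genes were lower in PA in the main test and had no copy of at least 95% identity. The same was true of other genes, such as Srsf1 and Rbm22. Each sequence is the 250 bases before the RefSeq start (GRCm38.p6, minus strand, written 5′ to 3′ along the gene), with the CCAAT motif or its reverse complement ATTGG in capitals.
Rbmx, chrX:57393037-57393286: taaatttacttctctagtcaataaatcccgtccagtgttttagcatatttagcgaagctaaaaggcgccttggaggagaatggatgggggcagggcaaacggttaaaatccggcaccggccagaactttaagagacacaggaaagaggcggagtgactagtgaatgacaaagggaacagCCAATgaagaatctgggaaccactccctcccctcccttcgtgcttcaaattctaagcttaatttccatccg
Rbm5, chr9:107771003-107771252: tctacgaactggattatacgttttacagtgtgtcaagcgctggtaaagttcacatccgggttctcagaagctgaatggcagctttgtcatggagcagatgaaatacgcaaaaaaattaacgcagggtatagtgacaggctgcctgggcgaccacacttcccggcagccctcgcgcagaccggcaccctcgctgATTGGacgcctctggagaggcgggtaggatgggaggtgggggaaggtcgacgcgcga
RefSeq promoters were matched for 65 of the 75 genes, and CCAAT or ATTGG was present in 32 of them (49.2%), against 37.5% of 27025 gene symbols with promoters of the same length. A gene counted if any of its promoters held the motif. The 27025 were not limited to the genes tested here or matched to the 65 by level, so these shares are not a test of the families. GGGCGG or its reverse complement was present in 38 (58.5%, against 35.4%), the palindrome CACGTG in 8 (12.3%, against 6.86%) and TATAAA or its reverse complement in 8 (12.3%, against 14.3%). All motifs were searched on both strands and may overlap. A match is a description of letters in this window and not of binding.

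Genes that act with these families were described by lists chosen with earlier results of these data known. The kinases that phosphorylate SR proteins, with their import receptor Tnpo3, gave no call. Of 7 tested, 0 passed with limma, 0 had an unadjusted p under 0.05 and 0 passed with voom, and the median log2 fold change was -0.02. Srpk1, the most abundant of these kinases, had 67.8, 68.8 and 67.9 RPKM in PA libraries, against 68.9, 72.5 and 75.1 RPKM in BSA libraries. Tnpo3 had 49.62, 50.04 and 49.33 RPKM in PA libraries, against 50.96, 51.14 and 49.43 RPKM in BSA libraries.

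Of 34 other sequence-specific splicing regulators, 8 fell, 1 rose and 25 did not pass (median -0.11), and voom called 12 lower and 2 higher. Over all genes, 9.52% fell and 11.2% rose with limma, and voom called 12.1% lower and 12.7% higher. The one that rose was Ptbp1, the polypyrimidine tract-binding repressor, with 289, 293 and 301 RPKM in PA libraries, against 273, 268 and 251 RPKM in BSA libraries (log2 fold change 0.16, SE 0.04, adjusted p = 0.0248). Khdrbs3, a STAR-family regulator, had a log2 fold change of -0.25, and the paraspeckle proteins Pspc1 and Nono had -0.19 and -0.17.

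Of 20 U2AF and SR-related cofactors, 3 fell and 17 did not pass (median -0.06, against -0.04 over all genes), and voom called 5 lower. Of all genes, 9.52% were called lower with limma and 12.1% with voom. The 3 that fell were U2af1 (log2 fold change -0.17), the small subunit that reads the AG of the 3′ splice site, its paralog U2af1l4 (-0.15) and Puf60 (-0.12). Of 14 genes of nonsense-mediated decay and the exon junction complex, 3 fell and 11 did not pass (median -0.03), and voom called 4 lower, beside the same shares of all genes. All 3 were core subunits of the exon junction complex, Magohb (-0.25), Magoh (-0.17) and Eif4a3 (-0.17), while Casc3, another core protein, had -0.11 (adjusted p = 0.0519) and Rbm8a, the partner of Magoh, had -0.10 (adjusted p = 0.198). In both lists 0 genes rose with limma or with voom, and in each list 1 gene had a positive change at an unadjusted p under 0.05.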

How the data were processed

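Polyadenylated RNA of 6 libraries (3 PA, 3 BSA) was sequenced from a stranded mRNA kit. Per the labels and the study's methods, the authors called bases with bcl2fastq, mapped reads to GRCm38 (mm10) with TopHat2 2.1.1 and deposited 1 table of RPKM per gene. No source used here names the read counter, its annotation or its handling of strand. The deposited log2 fold change, p-value, FDR and rank columns hold the authors' own comparison and were not used.

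RPKM were whole multiples of 1 read for 100% of expressed genes (tolerance 1e-06), which gave the reads of each library (17679817 to 21568228 as denominators, of which 99.4% were recovered). They set the counting precision of low values. Values were tested as log2(RPKM + 0.1) with limma 3.58.1 in R 4.3.3 (lmFit, eBayes with a variance trend, two-sided) over the 11671 genes with a mean of at least 0.5 RPKM, and p-values were adjusted by Benjamini-Hochberg over all of them. Fold changes are on this scale, which understates those of low genes. The study's methods name a model of counts. As the deposited unit is RPKM, limma's voom on recovered reads was run as an alternative and called 1487 genes higher and 1415 lower, against 1302 and 1111 in the main test. The procedure was tested on simulated data.

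Groups came from the sample labels. The members, the related lists and the tests were chosen with earlier results of these data known. In each family and direction, up to 4 genes past the test with the largest change were described in full, with the most abundant genes, Rbm3, Rbmx and Rbmxl1. The others past the test were given by fold change, and in each related list up to 4 genes past the test or the 2 most abundant. Copies were sought with blastn among GENCODE vM21 transcripts, and promoters came from RefSeq. Alternatives covered the pseudocount, minimum, scaling, variance model, GC, replicate block and each library left out.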

Additional observations from a re-analysis of the deposited data

How the results depend on the processing

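No gene past the test changed direction in any of the 16 alternatives, 3 of the 16 (Rbm15, Rbm38 and Rbm5) passed in all of them, and 3 of 12 named genes not past the test (Hnrnpa2b1, Hnrnpu and Hnrnph1) passed in at least 1. The count of 5 genes higher in PA became 3 without a minimum on RPKM, 3 after quantile normalization, 2 without a variance trend and 2 to 4 with 1 library left out. Over all genes the higher share was 5.91%, 11.5% and 9.50% in the first 3 of these, and 7.02% to 11.7% with 1 library left out. The count of 11 lower became 7 without a minimum, 4 after median-of-ratios scaling, 4 without a variance trend, 17 with voom on recovered reads and 1 to 15 with 1 library left out. Over all genes the lower share was 3.86%, 6.91%, 6.43% and 12.1% in the first 4 of these. It ran from 3.35% (without PA 2) to 14.1% (without BSA 3) over all 16 alternatives. The SR and Tra2 count of 3 lower became 1 without a minimum, 0 after median-of-ratios scaling, 0 without a variance trend, 1 with the GC trend removed, 1 with the GC trend removed and a replicate block, and 0 to 4 with 1 library left out. The hnRNP count of 1 lower became 3 at a minimum of 1 RPKM, 5 after quantile normalization, 4 with a replicate block, 7 with voom, 3 with the GC trend removed and a replicate block, and 0 to 5 with 1 library left out. The RBM count of 7 lower became 3 after median-of-ratios scaling, 3 without a variance trend, 4 with the GC trend removed and a replicate block, and 1 to 6 with 1 library left out. The log2 fold change of Tra2b, near 0, was 0.021 after median-of-ratios scaling, 0.032 with the GC trend removed, with or without the block, and -0.021 to 0.0092 with 1 library left out (above 0 without PA 2, BSA 1 or BSA 2). Fits with a library left out have fewer samples; the cause of the other moves was not tested.

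Replicate numbers are shared by the groups but did not pair the libraries: the correlations of same-numbered deviations were 0.0348, -0.0356 and 0.0942. With a replicate block, 5 genes were higher (7.46%, against 11.4% of all genes) and 12 lower (17.9%, against 10.6%). Of these, 14 were among the 16 of the main test, and the calls lost were those of Srsf6 and Rbmxl1. Quantile normalization gave 3 higher (4.48%, against 11.5% of all genes) and 16 lower (23.9%, against 11.0%).

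With 3 libraries in each group, a gene that did not pass is not shown to be unchanged. Gene-level RPKM cannot show splicing or protein level.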
